A study of Danio rerio with 12 samples.

Results

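The DnaJ (Hsp40) cochaperones were described in whole zebrafish embryos exposed to repeated heat, to stress metabolites or to both. A gene was taken as a member when its symbol starts with *dnaja*, *dnajb* or *dnajc*, except for the 2 rows named DNAJB9, and this gave 50 of the 32520 genes counted (6 in subfamily A, 12 in B and 32 in C). The rule used names only and no measured value. Of the 50 members, 47 passed the filter on low counts (6, 11 and 30), along with 18688 genes in all.

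The study asked how heat and the metabolites released by heated embryos alter receivers, and compared 4 treatments of AB wild-type embryos, each with 3 pools of 20 embryos that had been kept 1 to a tube. Control embryos (C) stayed in fresh medium at 27°C and SM embryos stayed at 27°C in medium taken from heat-stressed embryos, which holds stress metabolites. TS embryos had fresh medium and 19 cycles of heat peaking at 32°C, and TS + SM embryos had the same heat in the stress medium. No library came from embryos kept in medium of unheated embryos. Effects of stress metabolites and of used medium as such can thus not be told apart in any SM value below. The authors name this limit and call for that comparison. All pools were taken at 1 dpf after 24 h of exposure, and no treatment carried a mutation or transgene. As every library holds RNA of whole embryos, fewer cells of a type and less RNA per cell cannot be told apart.

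DnaJ proteins share the J domain, which stimulates the ATPase of Hsp70 chaperones and so lets Hsp70 hold on to client proteins. Subfamily A members keep the full domain order of bacterial DnaJ, subfamily B members lack the zinc-binding region, and subfamily C holds proteins that share little more than the J domain and are placed at ribosomes, mitochondria, the endoplasmic reticulum (ER) or vesicles. A few cytosolic members, DNAJB1 and DNAJA1 in mammals, are classical targets of the heat shock response, whereas most members serve housekeeping tasks at a fixed place in the cell.

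Libraries held between 18764434 and 60239167 counts on genes, and the members took between 0.104% and 0.140% of them. For the 47 members that passed the filter, a library held between 4 and 8454 counts of a member, with a median of 312. Levels are given as normalized counts, which are counts scaled by the TMM library size of edgeR, and no level is compared between genes because no transcript length was at hand. The replicate 3 libraries of C, TS and TS + SM had the highest TMM factors, 1.18, 1.23 and 1.14. The labels give RNA numbers of 37, 36 and 35 to these pools and 42 to replicate 3 of SM, against 2 to 12 for the other pools. Whether replicate 3 was a separate batch is not stated. TS + SM replicate 1 had the lowest factor, 0.74, and the most counts. Its median absolute deviation from the treatment mean over all genes tested was 0.29 (log2). That of replicate 3 was 0.23 in C, 0.29 in TS, 0.30 in TS + SM and 0.24 in SM. In replicate 3 the median member lay below the mean of the other 2 pools of its treatment, by a log2 difference of −0.19 in C, −0.27 in TS and −0.23 in TS + SM, against −0.10 in SM. Summed markers of lens ran from 632 to 1147 normalized counts in unheated pools and from 1626 to 2283 in heated ones, so they moved with heat, and 4 of the 4 markers were detected. Fast muscle markers (3 of the 6 listed were matched) moved with heat in part, from 46477 to 82547 unheated and from 73660 to 161777 heated, with the highest sum in TS replicate 3. Lens sums were also higher in SM (894 to 1147) than in C (632 to 729). With heat they were higher in TS + SM (1969 to 2283) than in TS (1626 to 1922). Fast muscle sums were lower in SM (46477 to 58381) than in C (59885 to 82547). Those of TS + SM (73660 to 118032) and TS (85395 to 161777) overlapped. These markers thus moved with the medium as well. The part of these shifts in the heat and SM values below was not tested. The study reports that heated embryos of this age were at a later stage than controls. Its authors state that effects of heat stress and of faster development could not yet be told apart, and call for stage-matched controls. Every heat value below may thus compare embryos of different stages, and the part of stage in it was not tested.

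No DnaJ member passed a *P*-adj of 0.05 when heat was averaged over both media, a comparison of 6 heated with 6 unheated pools in which 0.851% of all genes tested passed (edgeR quasi-likelihood test, Benjamini-Hochberg adjustment). At an unadjusted *P* of 0.05 there were 7 members, 3 higher and 4 lower in heated pools, which is 14.9% of the members against 9.36% of all genes. In 3 members, all lower, the heated and unheated pools did not overlap, 6.38% of the members against 2.03% of all genes in either direction. The median LFC (log2 fold change, heated over unheated) was −0.045 over the 47 members and −0.0027 over all genes. Of the 47 members 20 were above 0 and 27 below, against 9258 and 9430 of all 18688 genes. The role groups described below can be set beside these counts. The largest values were small: no member was beyond an LFC of 0.58, as 8.30% of all genes were, and the range ran from −0.48 to 0.55. For 31 members the whole 95% interval lay within an LFC of 0.58 of 0 (66% against 44.7% of all genes), and for 42 it lay within 1 (89.4% against 71.8%). The median SE was 0.13 over the members and 0.20 over all genes, so these contrasts also reflect precision and are not read as traits of the family. DESeq2 on the same libraries gave 1 member under a *P*-adj of 0.05, *dnajc2*, described next, against 2.34% of the 19123 genes to which it gave a *P*-adj.

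**Figure D1:**
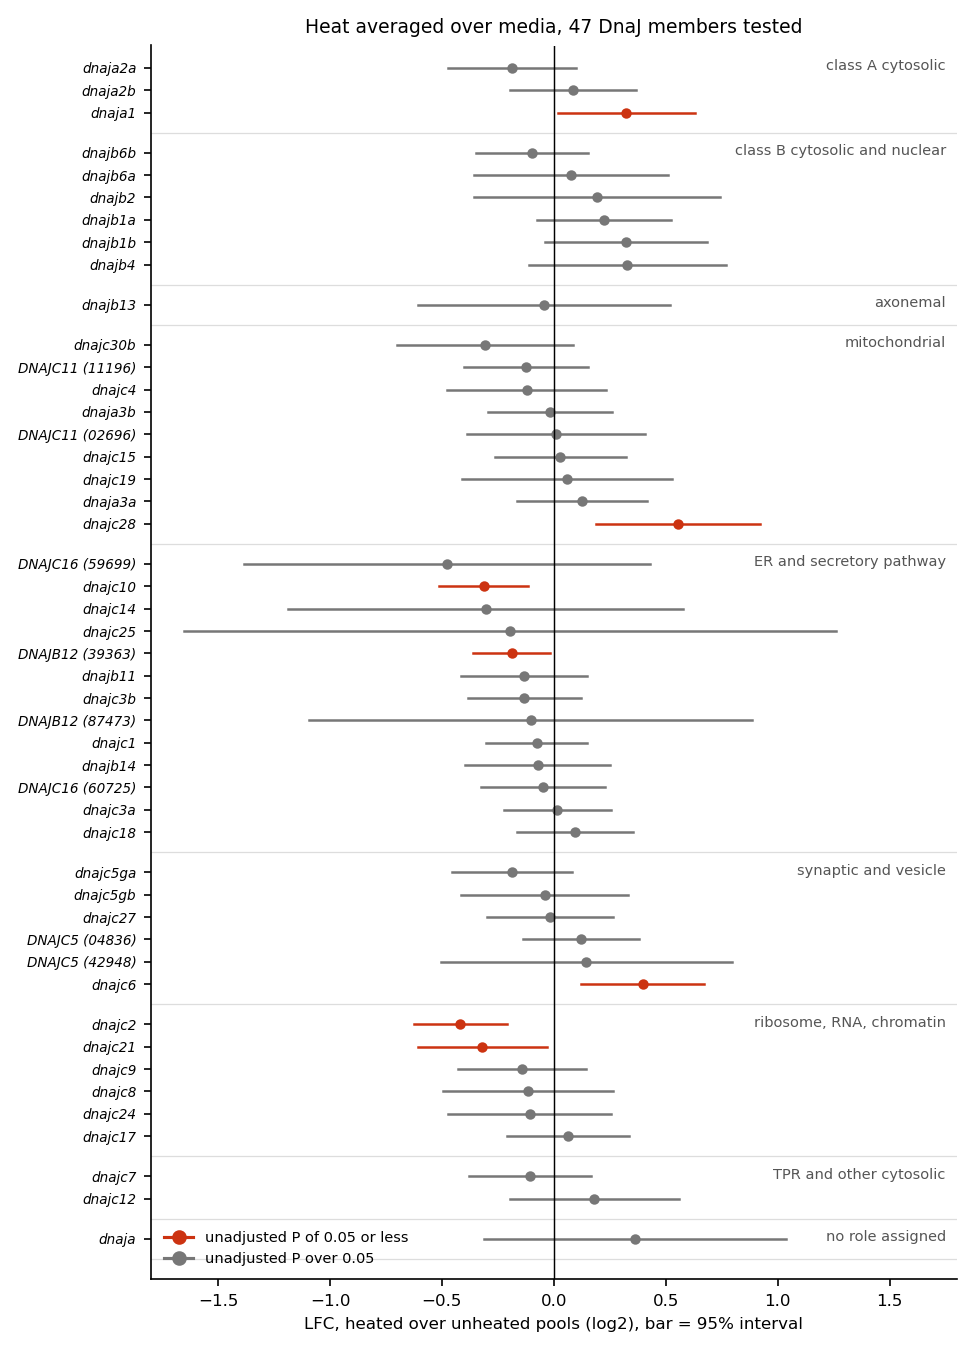
LFC of each of the 47 DnaJ members tested, heated over unheated pools averaged over media (x axis, log2), with 95% intervals as bars and members grouped by role. The 7 members in red have an unadjusted *P* of 0.05 or less, and the values of all members run from −0.48 to 0.55 (digits in brackets are the last of the gene ID, for symbols that 2 rows share).

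Members grouped here under ribosome, RNA and chromatin were mostly lower with heat, with 5 of 6 below 0 and a median LFC of −0.13. The group was set by symbol, which does not show that each member works there. But with only replicates 1 and 2 of every treatment 3 of 6 were below 0 and the median was −0.027. The lowest *P* of the family belonged to *dnajc2* (ENSDARG00000070477), whose mammalian protein binds the ribosome and aids folding of nascent chains. Its normalized counts were 777, 776 and 794 in C and 840, 681 and 872 in SM. They were 603, 600 and 642 in TS and 632, 569 and 504 in TS + SM. Every heated pool was below every unheated pool, and the C and TS pools were both tight, with means of 783 ± 10.4 and 615 ± 23.5 (SD, *n* = 3). The LFC was −0.42 ± 0.10 (SE), a level 0.749 times that of unheated pools, with *P*-adj = 0.0762 in edgeR. By *P* it stood at place 223 of the 18688 genes. By DESeq2 the LFC was −0.41 with *P*-adj = 0.0107, so the call depended on the tool. At the *dnajc2* locus 40.7% of stranded counts fell on the opposite strand, against a median of 0.279% over the members, and the unstranded count was 70.9% of the stranded one, as STAR leaves out reads that overlap more than 1 gene on either strand. The unstranded column gave an LFC of −0.45.

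*dnajc21*, whose mammalian protein takes part in maturation of the large ribosomal subunit, had 593, 512 and 516 normalized counts in C and 562, 508 and 430 in SM. In TS it had 473, 435 and 343, and in TS + SM 484, 444 and 318. The heated pools were lower on average but overlapped the unheated ones, and the lowest value of SM, TS and TS + SM was that of replicate 3. The LFC was −0.32 ± 0.13 (SE), with *P*-adj = 0.450 in edgeR. The other members of the group, *dnajc8*, *dnajc9*, *dnajc17* and *dnajc24*, had LFCs from −0.14 to 0.064 and *P*-adj from 0.904 to 0.988 in edgeR. *hspa14*, which encodes the Hsp70 that pairs with DNAJC2 at mammalian ribosomes, had an LFC of −0.16 ± 0.15 (SE) and *P*-adj = 0.906 in edgeR.

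**Figure D2:**
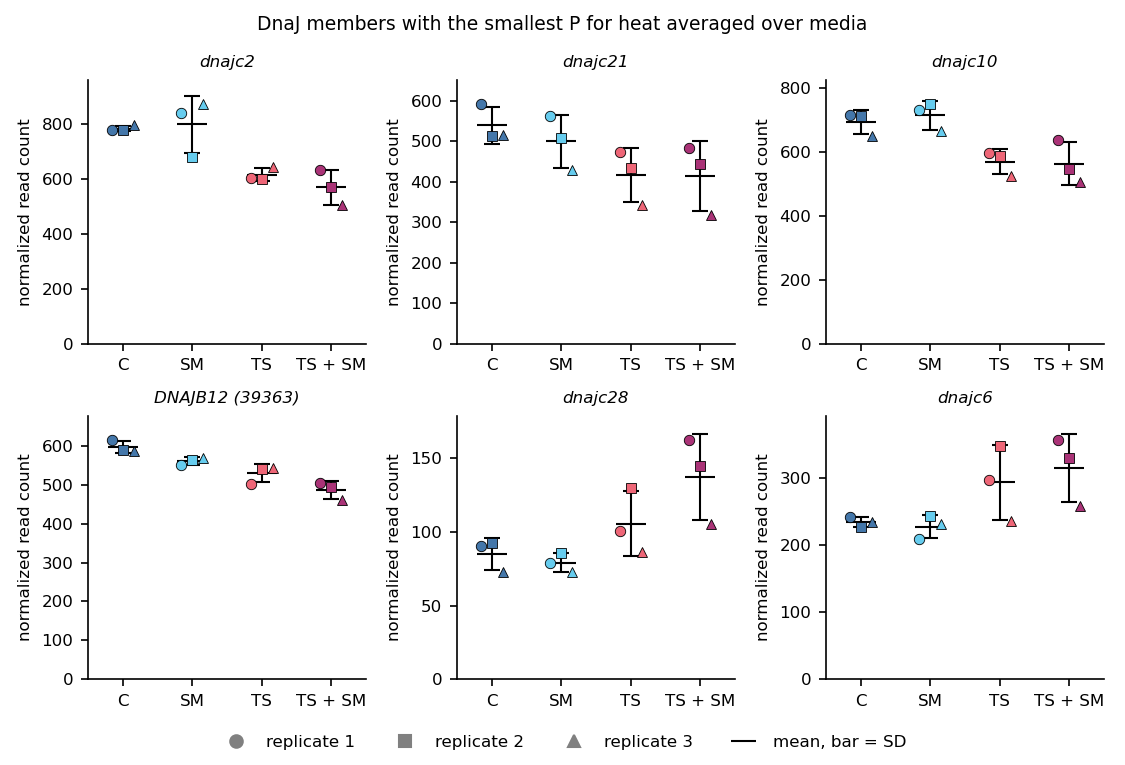
Normalized read counts (y axis, linear from 0) of the 6 members with the lowest *P* for heat averaged over media, by treatment (x axis), with each of the 3 pools as a point and the mean with SD in black. Heated and unheated pools do not overlap for *dnajc2*, *dnajc10* and DNAJB12 (ENSDARG00000039363), while *dnajc21*, *dnajc28* and *dnajc6* overlap.

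Members of the ER and secretory pathway also lay mostly below 0 with heat, 11 of 13 with a median LFC of −0.13. At *P* of 0.05 or less there were 2 of them, against 9.36% of all genes. *dnajc10* (ENSDARG00000074727) encodes an ER disulfide reductase that works with the ER Hsp70. Its normalized counts were 716, 714 and 651 in C and 730, 750 and 664 in SM, against 597, 586 and 526 in TS and 636, 547 and 504 in TS + SM. All 6 heated pools were below all 6 unheated pools, and within each treatment replicate 3 was the lowest. The LFC was −0.31 ± 0.092 (SE), a level 0.804 times the unheated one, with *P*-adj = 0.191 in edgeR.

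DNAJB12 (ENSDARG00000039363), 1 of 2 rows with that name, encodes a protein anchored in the ER membrane with its J domain facing the cytosol. It had the narrowest spread of the family, with the highest library 1.33 times the lowest. Its normalized counts were 616, 590 and 587 in C, 549, 564 and 569 in SM, 503, 542 and 544 in TS and 505, 494 and 462 in TS + SM. The 4 treatments were thus ordered C, SM, TS and TS + SM, with no overlap except between TS + SM and TS. The heat LFC was −0.19 ± 0.079 (SE), with *P*-adj = 0.453 in edgeR. The second row of that name (ENSDARG00000087473) had from 12.6 to 105 normalized counts and a heat LFC of −0.10 ± 0.45 (SE), so its interval was too wide to set it apart from the first. With only replicates 1 and 2 of every treatment that LFC was −0.91 ± 0.29 (SE), with *P*-adj = 0.161 in edgeR, and with replicate 3 of C and TS left out together it was −0.28, so its value depended on the replicate 3 pools.

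Among the ER members taken here, *dnajb11*, *dnajc3a* and *dnajc3b*, which have a part in the unfolded protein response, did not stand out. *dnajc10*, another ER member, is described above, with every heated pool below every unheated pool. The 2 rows named DNAJB9 were left out by the rule and were not examined. *dnajb11*, the main J protein for nascent chains in the ER, had a heat LFC of −0.13 ± 0.13 (SE). *dnajc3a* and *dnajc3b*, paralogs of the ER cochaperone and kinase inhibitor DNAJC3, had LFCs of 0.016 and −0.13. *hspa5*, the ER Hsp70, had an LFC of 0.15 ± 0.12 (SE) and *P*-adj = 0.879 in edgeR.

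Of the 9 mitochondrial members tested, 5 were above 0 and 4 below with heat, and the median LFC was 0.0099. The largest LFC of the family was that of *dnajc28* (ENSDARG00000018181), a mitochondrial member in mammals. Its normalized counts were 90.2, 92.4 and 72.7 in C and 79.2, 85.7 and 72.8 in SM. With heat they were 100, 130 and 86.6 in TS and 163, 144 and 105 in TS + SM. Every TS + SM pool was above every unheated pool, whereas the lowest TS pool fell among them. The heat LFC was 0.55 ± 0.17 (SE), a level 1.47 times the unheated one, with *P*-adj = 0.218 in edgeR. The LFC was 0.31 in TS vs. C and 0.80 in TS + SM vs. SM. *dnaja3a* and *dnaja3b*, paralogs of the DnaJ protein of the mitochondrial matrix, had LFCs of 0.13 and −0.018. The first was 0.034 without SM replicate 3, and the second changed sign without C replicate 1 (0.071). *hspa9*, the mitochondrial Hsp70, had an LFC of 0.025 ± 0.16 (SE).

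The synaptic and vesicle members split evenly with heat, 3 above 0 and 3 below. At *P* of 0.05 or less, where 9.36% of all genes lay, there was 1. This was *dnajc6* (ENSDARG00000079891), auxilin, which recruits Hsc70 to strip clathrin from vesicles and is enriched in neurons. It had 241, 227 and 234 normalized counts in C and 208, 243 and 230 in SM, against 297, 347 and 235 in TS and 357, 329 and 258 in TS + SM. Of the 6 heated pools 5 were above all unheated ones, the exception being TS replicate 3. The LFC was 0.40 ± 0.13 (SE), with *P*-adj = 0.240 in edgeR. With only replicates 1 and 2 of every treatment it was 0.54 with *P*-adj = 0.0455 in edgeR, so leaving out the replicate 3 pools gave a call. The share of all genes called in that fit is not given here, so the call is not read as particular to *dnajc6*. Summed neuronal markers (3 of 4 matched, all detected) ran from 3725 to 6249 normalized counts in unheated and from 5185 to 6003 in heated pools, and their part in the *dnajc6* values was not tested.

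The cytosolic members that are heat-inducible in other settings were higher on average in heated pools but did not pass the test. *dnajb1a* (ENSDARG00000099383) had 205, 226 and 160 normalized counts in C, 135, 201 and 197 in SM, 214, 223 and 214 in TS and 211, 248 and 204 in TS + SM. Its heat LFC was 0.22, with a 95% interval from −0.074 to 0.52 and *P*-adj = 0.737 in edgeR, and it was 0.14 without SM replicate 1. Its paralog *dnajb1b* (ENSDARG00000041394) had 1146, 879 and 719 in C, 927, 845 and 838 in SM, 1265, 1234 and 800 in TS and 1415, 1137 and 839 in TS + SM. In both heated treatments replicate 3 of *dnajb1b* was in the range of unheated pools while 3 of the other 4 pools were above it. Each TS and each TS + SM pool of *dnajb1b* was above the C pool of the same replicate number. The LFC was 0.32, with a 95% interval from −0.039 to 0.68 and *P*-adj = 0.629 in edgeR, and with only replicates 1 and 2 it was 0.42 with *P*-adj = 0.108. With the replicate number as a block the LFC was 0.30 ± 0.10 (SE) with *P*-adj = 0.260 in edgeR, which put *dnajb1b* under an unadjusted *P* of 0.05. A heat response of 2-fold or more at the time of sampling lies outside both intervals.

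*dnaja1* (ENSDARG00000030972), a class A partner of cytosolic Hsc70, had 310, 306 and 382 normalized counts in C, 214, 381 and 334 in SM, 432, 391 and 480 in TS and 339, 396 and 383 in TS + SM. The TS pools were all above the C pools, while TS + SM and SM overlapped. The heat LFC was 0.32 ± 0.14 (SE), with *P*-adj = 0.498 in edgeR. The stranded column matters for this gene and for *dnajb1b* and *dnaja2b*, since the unstranded count was 16.2%, 11.2% and 26.7% of the stranded one. No row was named *dnaja4*. *dnaja2a*, a further class A member, averaged 5284 ± 179 in C against 4600 ± 551 in TS, and 5143 ± 967 in SM against 4550 ± 858 in TS + SM (SD, *n* = 3). Its heat LFC was −0.19 ± 0.13 (SE), and that of *dnaja2b* was 0.084 ± 0.13. Without TS + SM replicate 3 the LFC of *dnaja2a* was −0.10, and that of *dnaja2b* was 0.023 without TS replicate 2 and 0.18 without TS replicate 3.

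Of the 6 class B cytosolic and nuclear members tested, 5 were above 0 with heat and the median LFC was 0.21. None had *P* of 0.05 or less, against 9.36% of all genes. With only replicates 1 and 2 of every treatment 3 of the 6 were above 0 and the median was 0.11, as *dnajb2* went from 0.19 to −0.22 and *dnajb6a* from 0.076 to −0.025. *dnajb2* was also below 0 with replicate 3 of C and TS left out together (−0.074). *dnajb4*, a close relative of DNAJB1 in mammals, had the highest of these LFCs at 0.33 ± 0.20 (SE). In the full set the exception was *dnajb6b*, a paralog of the aggregation-blocking chaperone DNAJB6, at −0.10 ± 0.11 (SE).

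**Figure D3:**
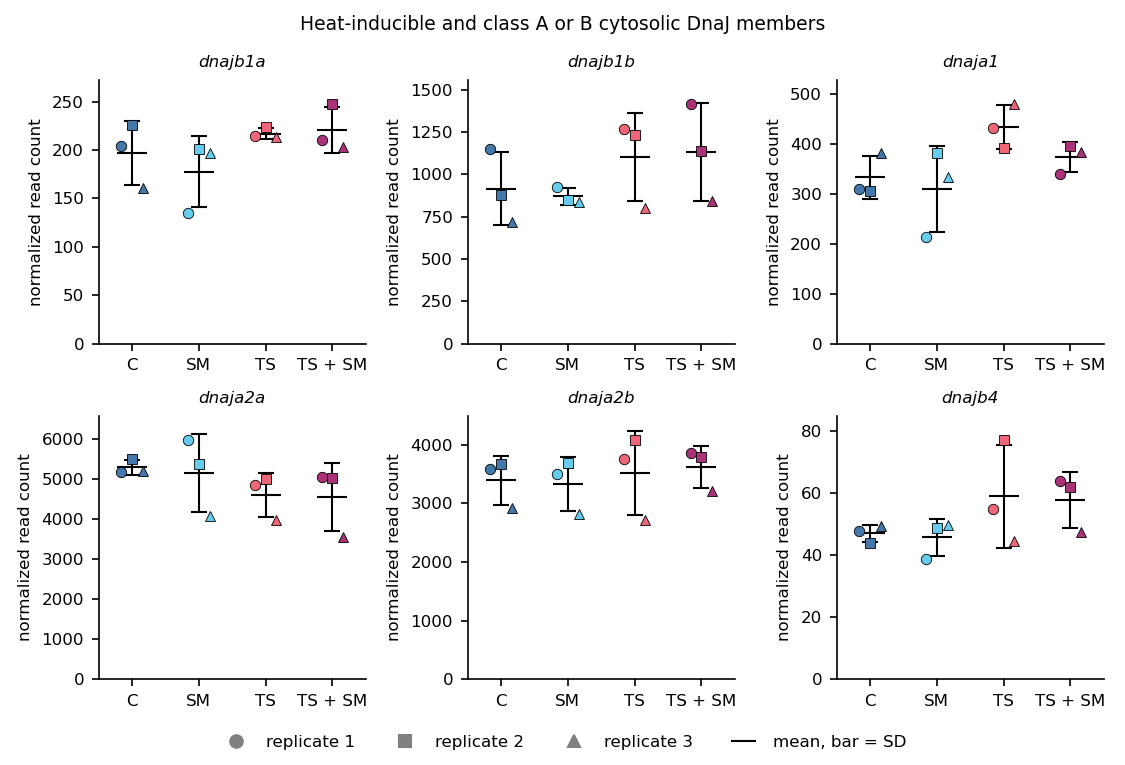
Normalized read counts (y axis, linear from 0) of *dnajb1a*, *dnajb1b*, *dnaja1*, *dnaja2a*, *dnaja2b* and *dnajb4* by treatment (x axis), with each of the 3 pools as a point and the mean with SD in black. Heated and unheated pools overlap for all 6 members.

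The rest of the Hsp70 machine was read from a list of 32 Hsp70 proteins, exchange factors and other cochaperones, of which 28 were matched and 27 tested. With heat averaged over media 2 of them rose and 0 fell at a *P*-adj of 0.05, and 6 had *P* of 0.05 or less, all higher. Of all genes, 0.851% passed that *P*-adj and 9.36% that *P*, in either direction. The heat-inducible *hsp70.3* rose by an LFC of 1.56 ± 0.13 (SE, *P*-adj = 0.000298 in edgeR), from 78.3 to 127 normalized counts in unheated pools to between 242 and 327 in heated ones. *hspa8b* rose by 1.79 ± 0.27 (SE, *P*-adj = 0.00987 in edgeR). The constitutive *hspa8* had an LFC of 0.28 ± 0.20 (SE) and *P*-adj = 0.824 in edgeR. The difference between these Hsp70 genes and the DnaJ members was not tested.

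Heat was also measured in each medium on its own, with no pool in common. In TS vs. C no member passed a *P*-adj of 0.05 by edgeR or DESeq2, against 0.0963% and 0.575% of all genes, and 2 had *P* of 0.05 or less, *dnajc2* and *dnajc10*, both lower, against 4.45%. The 2 groups did not overlap for 8 members, 2 higher and 6 lower, against 11.3%. In TS + SM vs. SM again none passed by either tool, against 0.107% and 0.792% of all genes, 4 had *P* of 0.05 or less, against 6.01%, and 7 did not overlap, against 10.3%. These 4 were *dnajc2* (LFC −0.49), *dnajc10* (−0.34), *dnajc6* (0.47) and *dnajc28* (0.80). As shares of the 47 members, the counts at *P* of 0.05 or less come to 4.26% in fresh and 8.51% in stress medium, and those without overlap to 17.0% and 14.9%, so each rests on a few members. *dnaja1*, *dnajc12* and *dnajc21* were among the members without overlap in fresh medium, with LFCs of 0.38, 0.18 and −0.38, and *dnajb1a* in stress medium with 0.31. The value of *dnajc21* was −0.24 without TS replicate 3, and that of *dnajb1a* was 0.15 without SM replicate 1.

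The direction of the heat values was much the same in both media. Of 47 members, 16 were higher and 24 lower in both, and 7 had opposite signs, so that 85.1% had the same sign, against 66.4% of all genes. As a description across members, which are not replicates, the LFCs in the 2 media had a Pearson *r* of 0.74 and a Spearman rho of 0.75, against 0.40 and 0.42 across all genes, and the points share replicate numbers and library composition. The members were also measured more precisely, with a median SE of 0.19 in TS vs. C against 0.28 over all genes, and its part in the agreement was not tested. The largest departure was *dnajc5gb*, a relative of the synaptic vesicle protein DNAJC5, with an LFC of 0.23 in fresh and −0.31 in stress medium. Its interaction of heat and SM was −0.54 ± 0.34 (SE), with the lowest *P* of the family. Replicate 3 of *dnajc5gb* lay below the mean of the other 2 pools in C, TS and TS + SM (log2 differences of −0.57, −0.39 and −0.74). In SM it lay above that mean (0.33), and the part of replicate 3 in the interaction was not tested. No member and 0% of all genes passed a *P*-adj of 0.05 for the interaction by edgeR, no member had an unadjusted *P* of 0.05 or less, against 0.915% of all genes, and DESeq2 also gave 0 members, against 0.00724%.

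**Figure D4:**
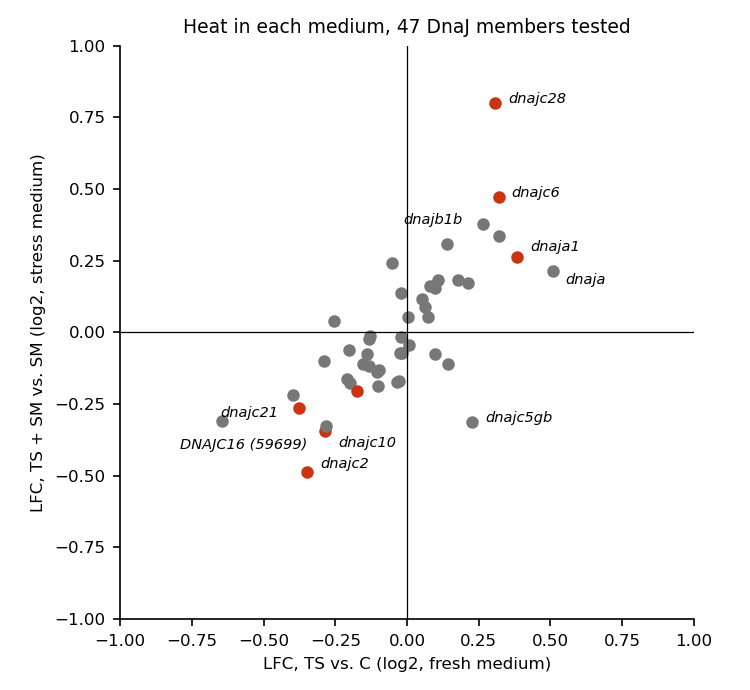
LFC of heat in stress medium (TS + SM vs. SM, y axis, log2) against LFC of heat in fresh medium (TS vs. C, x axis, log2) for the 47 members tested, with the 7 members of *P* of 0.05 or less for heat averaged over media in red. Most points lie in the lower left and upper right, where the sign is the same, and *dnajc5gb* lies at the lower right.

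Stress metabolites alone left the family without a call. In SM vs. C no member and 0% of all genes passed a *P*-adj of 0.05 by edgeR, DESeq2 gave 0 members against 0.00362% of all genes, and 1 member had *P* of 0.05 or less, against 2.12% of all genes. The groups did not overlap for 5 members, 1 higher and 4 lower, against 7.37%. The 1 member higher in SM was *dnajc5gb* (ENSDARG00000017687), with 280, 293 and 193 normalized counts in C and 382, 325 and 444 in SM. With heat it had 347, 302 and 248 in TS and 388, 324 and 213 in TS + SM. The LFC in SM vs. C was 0.59 ± 0.24 (SE), with *P*-adj = 0.989 in edgeR. Replicate 3 was the lowest C pool and the highest SM pool of this gene. Over the refits the LFC ran from 0.30 to 0.70, and from 0.42 to 0.70 with a library left out in turn. The paralog *dnajc5ga* had an LFC of 0.074 ± 0.17 (SE). The 4 lower members were *dnajb2*, *dnaja*, *dnajc12* and DNAJB12 (ENSDARG00000039363), with LFCs of −0.70, −0.62, −0.23 and −0.092, each with *P*-adj = 0.989 in edgeR.

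With SM averaged over temperatures, none of the members and 0% of all genes passed a *P*-adj of 0.05 by edgeR, and DESeq2 gave 0 members against 0.00362% of all genes. At *P* of 0.05 or less there were 4 members, all lower in SM, against 3.82% of all genes, and no member was without overlap, against 0.123%. The 4 were *dnajb2* (LFC −0.72), the row of DNAJC5 with ENSDARG00000042948 (−0.82), *dnaja* (−0.77) and *dnajb6a* (−0.44). *dnajb2* encodes a chaperone of neurons in mammals and *dnajb6a* an aggregation-blocking chaperone. No role is given for the row named only *dnaja* (ENSDARG00000051762).

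These 4 members were high in the replicate 3 pool of TS. *dnaja* had 303, 313 and 404 normalized counts in C, 231, 254 and 178 in SM, 294, 265 and 886 in TS and 179, 194 and 398 in TS + SM. *dnajb2* had 87.1, 72.0 and 72.7 in C, 43.5, 58.3 and 40.8 in SM, 55.0, 70.4 and 142 in TS and 52.6, 41.3 and 66.7 in TS + SM. DNAJC5 (ENSDARG00000042948) had 61.5 and 68.7 in replicate 3 of C and TS, against 19.8 to 39.8 in the other 10 pools. In *dnajb6a* the same 2 pools had 604 and 667, against 261 to 413 elsewhere. With only replicates 1 and 2 of every treatment the LFCs were −0.52 ± 0.20 (SE) for *dnajb2*, −0.47 ± 0.10 for *dnaja*, −0.37 ± 0.27 for DNAJC5 and −0.055 ± 0.13 for *dnajb6a*, with *P*-adj from 0.654 to 0.938 in edgeR. The value of *dnajb6a* thus rested on the replicate 3 pools, whereas those of *dnajb2* and *dnaja* remained in part.

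Counted in the same way, 7 members had a TS replicate 3 more than 0.58 (log2) above the mean of the other TS pools, 14.9% of those tested against 25.6% of all genes. Beside the 4 above they were *dnajc25*, *dnajc14* and DNAJB12 (ENSDARG00000087473), chosen after their values were seen. All 7 were also above in replicate 3 of TS + SM, by 0.0070 to 1.73, and 6 were above in C, while all 7 were below in replicate 3 of SM, by log2 differences from −1.54 to −0.31. Of the 4783 genes in all that were as high in TS replicate 3, 81.6% were above in replicate 3 of TS + SM, 88.6% above in C and 65.6% below in SM, so the pattern was common to many genes. *dnajc25* varied most of all members, with 29.4, 34.0 and 129 normalized counts in C, 26.4, 41.7 and 11.0 in SM, 21.8, 8.13 and 124 in TS and 9.57, 18.1 and 47.3 in TS + SM. Its highest library was 15.8 times its lowest, against a median of 1.71 over the 47 members. The 7 had a median of 3.30% of stranded counts on the opposite strand, against 0.279% over all 50 members. TS replicate 3 had the highest sums of muscle, erythroid, hatching gland and notochord markers of the 12 libraries (161777, 39266, 8882 and 3426). The notochord sum came mainly from *col8a1a* (2799), with *tbxta* at 627. Sums of lens, epidermal, neuronal, ciliated cell and germ cell markers were highest in other libraries. The part of these in the 7 members was not tested.

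**Figure D5:**
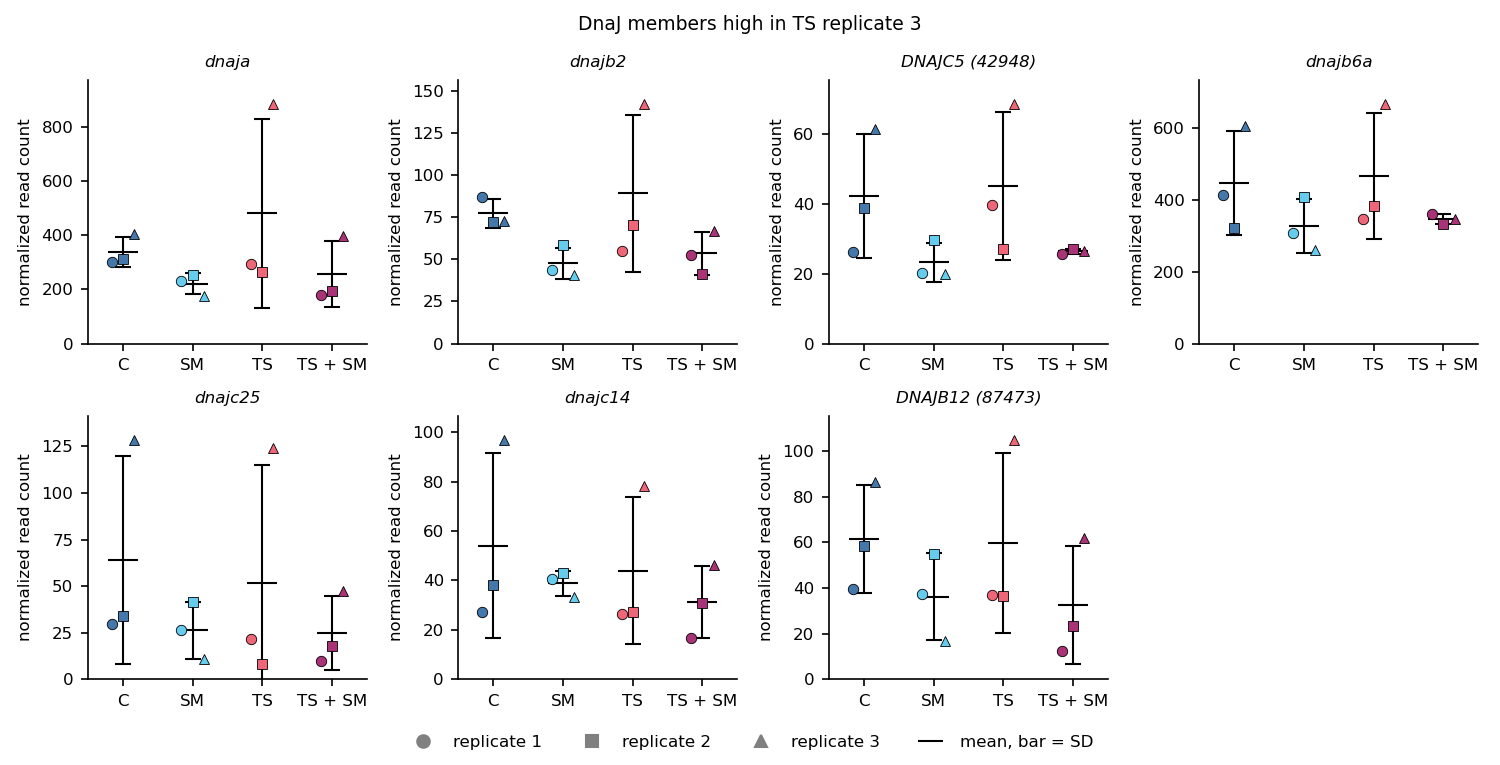
Normalized read counts (y axis, linear from 0) of the 7 members with a TS replicate 3 more than 0.58 (log2) above the other TS pools, by treatment (x axis), with each of the 3 pools as a point and the mean with SD in black, SD bars being cut at 0. The triangle of replicate 3 is the highest of the TS pools in all 7 and the lowest of the SM pools in all 7.

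The combined treatment was compared with C and with heat alone. In TS + SM vs. C no member passed a *P*-adj of 0.05 by edgeR or DESeq2, against 0.171% and 0.947% of all genes, 5 had *P* of 0.05 or less, against 6.24%, and 8 did not overlap, against 12.5%. The 5 were *dnajc28* (LFC 0.69), *dnajc6* (0.43), *dnajc2* (−0.46), *dnajc10* (−0.30) and DNAJB12 (ENSDARG00000039363, −0.30), and *dnajc21* and *dnajb2* were without overlap at −0.38 and −0.53, the first of which was −0.20 without TS + SM replicate 3. In TS + SM vs. TS none of the members and 0% of all genes passed a *P*-adj of 0.05 by edgeR, DESeq2 gave 0 members and 0% of all genes, none had *P* of 0.05 or less, against 1.45%, and none was without overlap, against 5.40%. The median absolute LFC of the members was 0.090 in that comparison, against 0.18 over all genes.

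The remaining members gave little to compare. *dnajb5*, *dnajc22* and *dnajc5b* did not pass the filter on low counts, with sums of 77, 17 and 60 counts over the 12 libraries. Of the 77 counts of *dnajb5*, 35 were in TS replicate 3. *dnajb13*, whose mammalian protein sits in the radial spokes of motile cilia, passed with 16.8 to 33.1 normalized counts and a heat LFC of −0.045 ± 0.26 (SE). One of the 2 rows of DNAJC16 (ENSDARG00000059699) had 52.8% of its stranded counts on the opposite strand, and whether its low values hold reads of an overlapping gene was not tested. The other (ENSDARG00000060725) had 502 to 720 normalized counts and a heat LFC of −0.048 ± 0.13 (SE). The better-counted row of DNAJC5 (ENSDARG00000004836) averaged 1224 ± 91.4 in C against 1293 ± 167 in TS, and 1262 ± 93.5 in SM against 1411 ± 302 in TS + SM (SD, *n* = 3), with a heat LFC of 0.12 ± 0.12 (SE). The highest library was less than 2 times the lowest for 33 of the 47 members.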

How the data were processed

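The authors trimmed read pairs of strand-specific mRNA libraries with fastp 0.23.1, without removing duplicates, aligned them to GRCz11 with STAR 2.6.1 and deposited the STAR counts per gene, not normalized; only uniquely aligned pairs count, which makes close paralogs uncertain. The second stranded count column was used, without its 4 summary lines. Symbols came from a name table and from the study, matched 29207 of 32520 genes, and give 4 pairs of members 1 name each.

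Tests used edgeR 4.0.16 in R 4.3.3 (TMM, filterByExpr, robust quasi-likelihood F test, two-sided, Benjamini-Hochberg over 18688 genes) fitted once to all 12 libraries, treatment being the only factor. A member is named when its *P* was 0.05 or less in any comparison, when it was among the 3 largest rises or falls without overlap, as a class A or DNAJB1 member, as the paralog of a named one, or when it failed the filter. Further members are named outside this rule, to describe role groups, strand counts, the replicate 3 pools or the refits. The members, lists and tests were chosen with earlier results of these data known. The fit was run on simulated counts with the same dispersion for every gene and independent libraries. That run does not cover the spread or the shared deviations of these pools. Pools of 1 treatment differed by more than counting noise (chi-square per gene from 4.82 to 172). That value scaled counts by their totals only, without TMM, so differences in composition also enter it. The tests set differences against the spread between pools, and what makes up that spread was not tested.

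Same-numbered libraries deviated together between C and TS (correlations of 0.27 to 0.78) and between C and TS + SM (0.10 to 0.61), so these looked paired, by the data alone. The main tests did not use this pairing, which entered only through the replicate block among the alternatives. The alternatives were DESeq2 1.42.0, its size factors, no filter, the replicate block, the unstranded counts, thinned libraries, only the libraries compared, each library left out, replicates 1 and 2 only and, chosen after seeing the data, C and TS replicate 3 left out together. Gene lengths, proteins and promoters were not used here.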

Additional observations from a re-analysis of the deposited data

How the results depend on the processing

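The count of members under a *P*-adj of 0.05 stayed at 0 in 163 of the 165 refits of the 8 comparisons. It was 1 for heat averaged over media with DESeq2 (*dnajc2*, LFC −0.41, *P*-adj = 0.0107) and 1 with only replicates 1 and 2 of every treatment (*dnajc6*, LFC 0.54, *P*-adj = 0.0455). DESeq2 called 2.34% of the genes to which it gave a *P*-adj, and the share in the other refit is not given here. Neither call is read as particular to the family. With a library left out in turn the counts were 0 throughout. The replicate block also gave 0 in every comparison, with *dnajc2* at −0.42 (*P*-adj = 0.0713) for heat. At an unadjusted *P* of 0.05 the block added 7 values (*dnajb1b* for heat averaged and in TS + SM vs. SM, *dnajc30b* for heat and for SM averaged, *dnajc21* in TS vs. C and in TS + SM vs. C, and *dnaja* in TS + SM vs. TS) and lost 1, *dnajb6a* for SM averaged. The share of all genes with such a change is not given here, so these changes are not read as particular to the members. Signs changed for *dnaja3b*, whose heat LFC of −0.018 became 0.052 with thinned libraries and 0.0084 with replicates 1 and 2 only and ran from −0.071 to 0.071 with a library left out in turn, above 0 without C replicate 1, SM replicate 3 or TS replicate 3. For *dnaja* it went from 0.36 to −0.25 with replicates 1 and 2 only (*P*-adj = 0.252 in edgeR), and ran from −0.015 (without TS replicate 3) to 0.50 with a library left out. The cause was not tested. Of all 47 members, 21 changed the sign of the heat LFC in at least 1 refit, 11 of them with replicates 1 and 2 only, and none of the 21 was beyond 0.36 from 0 with all libraries. Leaving out C and TS replicate 3 together moved the SM value of *dnajb6a* from −0.44 to −0.12, of *dnaja* from −0.77 to −0.30, of *dnajb2* from −0.72 to −0.48 and of DNAJC5 (ENSDARG00000042948) from −0.82 to −0.41. DESeq2 size factors shifted the median gene by less than 0.01. No value per length could be computed. With 3 pools a treatment, intervals of pairwise LFCs lay within 0.58 of 0 for 19 to 28 of the 47 members. For these members a difference beyond 0.58 lies outside the interval, while smaller ones could pass unseen. In the rest, larger differences could also pass unseen.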
